A study of Mus musculus with 21 samples.

Results

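Cells of RAW 264.7, a mouse macrophage-like tumour line, exposed for 2 h to 10 nm amorphous silica at 5 µg/ml, the lowest nanoparticle dose of the study, were compared with untreated cells. The comparison took 6 of the 21 arrays in the series, 3 of exposed and 3 of untreated cells, chosen by the sample titles, and all 22626 of the 22690 probe sets that are not array controls. Other cells of the series received 10 nm silica at 20 or 50 µg/ml, or 500 nm silica at 250, 500 or 1000 µg/ml, with 3 arrays for each dose. The 20 and 50 µg/ml doses of 10 nm silica and the 250 µg/ml dose of 500 nm silica were set against the 5 µg/ml dose. No genetic change separates the groups, and all cells grew in medium with 10% serum. Exposure took place in serum-free medium, and the labels do not say whether untreated cells also left serum, so that change and the particles cannot be told apart. The labels do not call the replicates separate cultures either. Each p-value reflects how far arrays varied within groups over all 21 arrays of the series, unless a fit on fewer is named. That variation may be technical alone.

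Macrophages take up particles into endosomes and lysosomes, and particle contact can start kinase cascades within minutes. Immediate early genes, whose products include transcription factors of the AP-1 and EGR families, are copied first because they need no new protein. Chemokine genes and genes for phosphatases and RNA-decay proteins, which shut the same signals off, usually follow in the same early wave.

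Expression values are given on the log2 scale, so that a difference of 1 is a 2-fold difference, and a gene was called when limma's p, adjusted over all 22626 probe sets, lay under 0.05. Of 11 macrophage markers, 9 were above the median of all probe sets, the brightest being the receptor gene Csf1r at 13.3 and the dimmest the scavenger receptor gene Cd163. Their mean level was 9.73 to 9.80 on exposed arrays and 9.56 to 9.87 on untreated arrays, against 3.99 to 5.67 on exposed and 3.97 to 5.58 on untreated arrays for the 7 lists of other cell types. Of all 8 marker lists 0 members were called, against 0.573% of all 12393 genes called higher and 0.113% lower. At such shares, lists this short would hold few calls or none. Arrays correlated over probe sets, which are not independent, at 0.992 to 0.997 among exposed and 0.982 to 0.997 among untreated cells. Untreated replicate 3 stood apart: the signal at the 3′ end of Gapdh exceeded that at the 5′ end by 1.18 log2 units, an index that rises as RNA degrades. The index was 0.42, 0.73 and 0.38 on the exposed arrays, against 0.05 and 0.03 on untreated replicates 1 and 2. Its part in the results was not tested, and results that change without that array are given with and without it.

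At 5 µg/ml the change in RNA was small in extent and mostly upward. Of the 22626 probe sets, 110 were higher (0.486%) and 30 lower (0.133%) in exposed cells, and 26 of the higher and 3 of the lower ones differed at least 2-fold. By any of their probe sets they stood for 83 genes that were higher and 22 that were lower, beside 17 probe sets with no single gene name. Of these genes 63 had several probe sets. All were called in 9 of them, and at least 1 had the opposite sign in 6. Among genes named below, 1 of 2 probe sets was called for Fosl1, Rgs2, Irf4, Trib3, Pdgfb, Ptpro and Hpgd. Called were 1 of 3 for Pim3, 2 of 3 for Gadd45b and 2 of 5 for Ndrg1. Taken by the brightest probe set alone, 71 of 12393 genes were higher and 14 lower. Among called probe sets, rises ranged from 0.36 to 2.07 and falls from -0.47 to -1.31 log2, against a median of 0.015 over all probe sets. In all 140 called probe sets the exposed and untreated arrays did not overlap, which was so for 10.8% of all probe sets. In RNA from whole cultures, fewer cells of a type and less RNA per cell cannot be told apart.

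**Figure D1:**
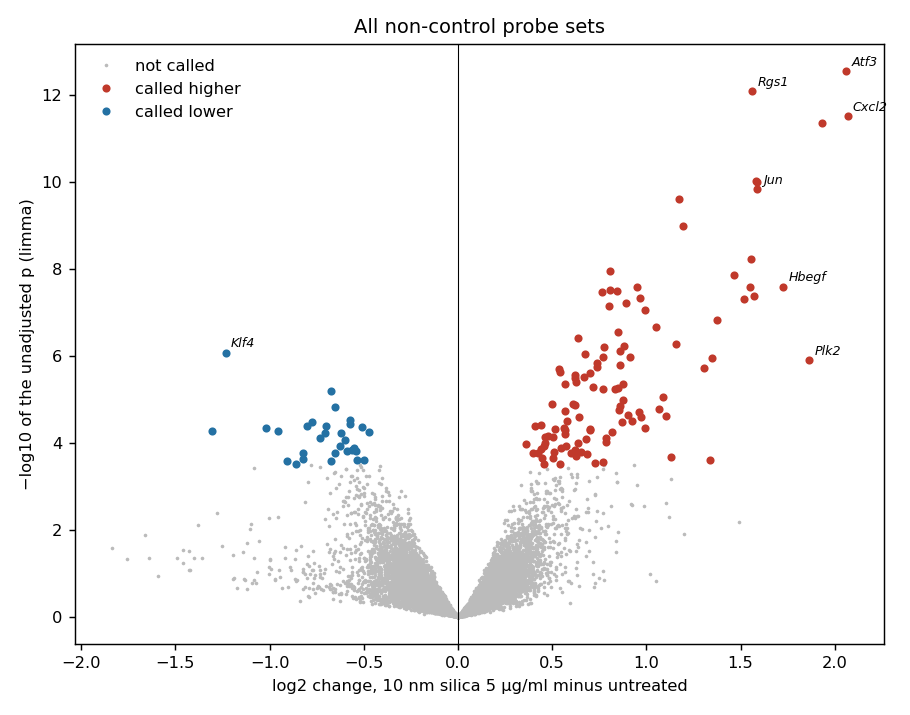
Log2 change between exposed and untreated cells (x axis, 10 nm silica at 5 µg/ml minus untreated) against the negative log10 of limma's unadjusted p (y axis) for all 22626 non-control probe sets. The 110 called higher are red and the 30 called lower are blue, and the red points reach further from 0 (to 2.07) than the blue ones (to -1.31).

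Leaving out each of the 6 arrays in turn left 75 to 103 probe sets higher. The lower ones numbered 5 without 10 nm replicate 1, 11 without 10 nm replicate 3, 12 without untreated replicate 3 and 23 to 28 without any other array. Fitted on the 6 arrays alone, where the spread is estimated from fewer arrays, 15 probe sets were higher and 0 lower, while weighting arrays by their quality gave 1053 and 883. Across the 16 alternative settings, 15 calls held in each one that tested them, 15 of them higher and 0 lower. These belonged to 13 genes, namely Cxcl2, Atf3, Ccl4, Plk2, Hbegf, Jun, Gadd45b, Plau, Rgs1, Maff, Cxcr4, C3ar1 and Dusp1. For C3ar1 this was the dimmer of its 2 probe sets (1.07, adjusted p = 0.00593), while the brighter was not called on the 6 arrays alone.

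Chemokine genes were among the largest rises. Cxcl2, which codes for a chemokine that draws neutrophils, had 9.03, 9.10 and 8.92 on the exposed arrays, against 6.74, 6.89 and 7.22 on the untreated arrays. The groups lay far apart, with a mean of 9.02 ± 0.090 in exposed and 6.95 ± 0.24 in untreated cells (SD, n = 3 each), a 4.19-fold rise (log2 change 2.07 ± 0.13 SE, adjusted p = 2.28e-08). Ccl4, a chemokine gene for monocytes and lymphocytes, had 10.98, 11.07 and 10.75 in exposed and 8.92, 9.02 and 9.05 in untreated cells. It rose 3.82-fold (1.93 ± 0.12, adjusted p = 2.45e-08), with the arrays of each group close together. Ccl3, its neighbour in function and among the brightest genes here, had 13.04, 13.02 and 12.82 in exposed and 11.71, 11.80 and 10.97 in untreated cells. It rose 2.77-fold (1.47 ± 0.15, adjusted p = 2.52e-05), and untreated replicate 3 was the lowest array.

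Of the 27 measured genes in the list of cytokines, chemokines and their receptors, 6 rose and 0 fell, against 0.573% and 0.113% of all 12393 genes. The list's median was 0.15, against 0.026 over all genes. This and the other lists were chosen with earlier results of these data known, so their shares describe the lists and test nothing. The other members that rose were the chemokine receptor Cxcr4 (log2 change 1.38, adjusted p = 0.000131), the cytokine Tnf (0.86, adjusted p = 0.00053) and Ccrl2, a receptor that presents chemerin (0.64, adjusted p = 0.021). Tnf had 10.15, 10.29 and 10.05 in exposed and 9.40, 9.38 and 9.11 in untreated cells, with no overlap. The call of Ccrl2 ended without any 1 of 5 arrays, all but untreated replicate 1 (adjusted p = 0.0535 to 0.12). Several classical inflammatory genes were not called. Il1b, which codes for the inflammasome-processed cytokine interleukin-1 beta, had 5.41, 5.11 and 5.47 in exposed and 5.10, 5.00 and 5.46 in untreated cells, which overlap (0.14 ± 0.20, adjusted p = 0.973). The monocyte chemokine Ccl2 had 5.65, 5.88 and 5.66 in exposed and 5.59, 5.60 and 4.79 in untreated cells (0.41 ± 0.30, adjusted p = 0.931). Il1rn, the interleukin-1 receptor antagonist, was uncertain, since its brightest probe set was not called (0.41, adjusted p = 0.927) and another was higher (0.85, adjusted p = 0.00231).

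Immediate early transcription factors formed the second group. Atf3, a stress-induced factor of the ATF/CREB family, had 10.72, 10.89 and 10.74 in exposed and 8.62, 8.75 and 8.79 in untreated cells. It rose 4.17-fold (2.06 ± 0.11, adjusted p = 6.27e-09), with both groups tight. Jun, the AP-1 subunit that pairs with Fos or ATF proteins, had 9.58, 9.28 and 9.59 in exposed cells, against 7.62 to 8.06 over the 3 untreated arrays. It rose 3.01-fold (1.59 ± 0.12, adjusted p = 4.68e-07), and its second probe set rose by 1.57. Maff, a small Maf protein without an activation domain of its own, had 7.10, 6.94 and 7.01 in exposed and 5.25, 5.33 and 5.81 in untreated cells. It rose 2.94-fold (1.55 ± 0.15, adjusted p = 1.32e-05), with untreated replicate 3 nearest to the exposed arrays.

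**Figure D2:**
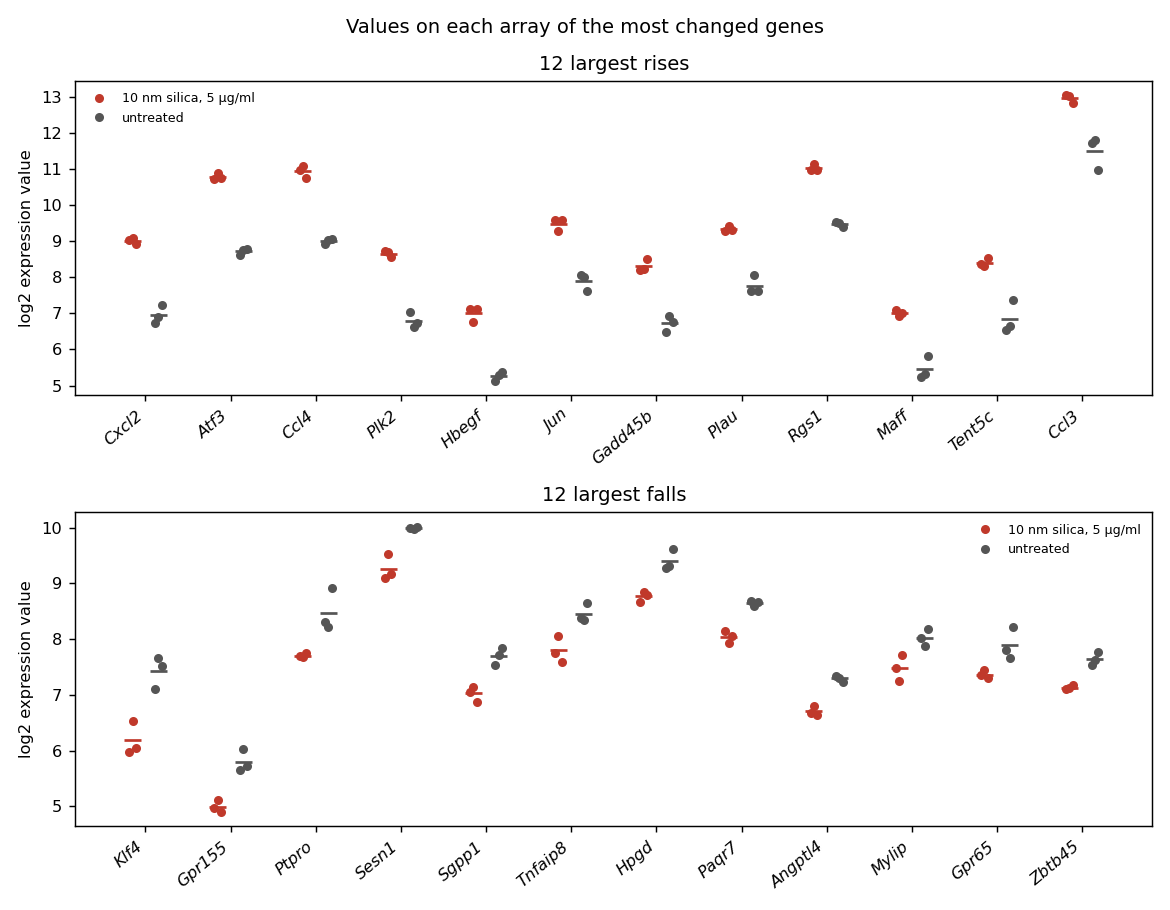
Log2 expression value (y axis) on each array for the 12 genes with the largest rises (upper panel) and the 12 with the largest falls (lower panel), exposed arrays in red and untreated arrays in grey, with bars at the group means (n = 3 each). In every gene shown the 3 red points lie beyond the 3 grey points, from Cxcl2 (log2 change 2.07) to Ccl3 (1.47) above and from Klf4 (-1.23) to Zbtb45 (-0.51) below.

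Of the 30 measured genes of this list, 9 rose and 1 fell, against 0.573% and 0.113% of all genes, with a median of 0.37. The 10 calls became 3 on the 6 arrays alone and 20 with array weights. Besides Atf3, Jun and Maff, the rises were those of Bhlhe40, a repressor of the bHLH family (1.35), Nab2, a corepressor of EGR proteins (0.96), the survival-related early gene Ier3 (0.88), the AP-1 subunit Fosl1 (0.77), Klf2, a Krüppel-like factor (0.70), and Ier5 (0.62). Adjusted p ran from 0.000691 for Bhlhe40 to 0.0127 for Klf2, whose call ended without 10 nm replicate 1 or untreated replicate 3 (adjusted p = 0.0743 to 0.116). Ier5 was called by 1 of its 3 probe sets, and 1 had the opposite sign. The member that fell was Klf4, described with the falls. The best-known members of the early wave were not called at this dose and time. Fos had 6.81, 6.42 and 6.82 in exposed and 6.97, 7.35 and 7.66 in untreated cells, every exposed array below every untreated one (-0.64 ± 0.19, adjusted p = 0.255). Egr1 had 11.14, 10.83 and 11.14 in exposed and 10.47, 10.44 and 10.95 in untreated cells, which overlap (0.42 ± 0.17, adjusted p = 0.584). For Egr2 the log2 change was 0.20 and for Nr4a1 0.27, and neither was called (adjusted p = 0.93 and 0.906). The brightest probe set of Klf6 was not called (0.99, adjusted p = 0.216) while another was higher (1.30, adjusted p = 0.00104), and those of Id2 were split in the same way (0.59, adjusted p = 0.684, and 0.81, adjusted p = 2.27e-05).

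The ATF/CREB family, to which Atf3 belongs, binds TGACGTCA and near variants, and NF-kB dimers bind the kB motif, so the 250 bases before annotated starts were read for these letters (RefSeq, GRCm38.p6, both strands). The stretches of 5 genes with a match are shown 5′ to 3′ on the gene's strand, with the matches of TNACGTCA, or for Cxcl2 of the kB motif, in capitals. They lie at chr1:191183334-191183383 (minus strand, Atf3), chr13:110394942-110395029 (plus, Plk2), chr15:79347451-79347519 (plus, 1 of the starts listed for Maff), chr17:26508568-26508655 (minus, Dusp1) and chr5:90903762-90903852 (plus, Cxcl2).
Atf3: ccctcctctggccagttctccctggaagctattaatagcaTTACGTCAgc
Plk2: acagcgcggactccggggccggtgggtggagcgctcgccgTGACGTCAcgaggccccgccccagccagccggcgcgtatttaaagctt
Maff: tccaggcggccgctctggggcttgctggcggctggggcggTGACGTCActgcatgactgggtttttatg
Dusp1: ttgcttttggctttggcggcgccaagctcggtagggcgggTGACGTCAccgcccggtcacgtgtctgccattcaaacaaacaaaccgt
Cxcl2: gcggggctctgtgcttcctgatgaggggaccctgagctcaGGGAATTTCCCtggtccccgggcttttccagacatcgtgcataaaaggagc

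The match began 10 bases before the start in Atf3, 29 in Maff, 62 in Plk2 and 143 in Dusp1, and the capitals of Cxcl2, 97 bases before the start, hold 2 overlapping matches. Of the 83 genes that were higher, 69 had a listed promoter, and 8 of these (11.6%) held TNACGTCA, namely Atf3, Dusp1, Flcn, Klf9, Maff, Ndel1, Plk2 and Zfand2a. The share was 3.92% of the 9887 genes on the array with a promoter and 2.52% of all 32851 listed promoters. TNACGTCA includes TGACGTCA, which 5 of the 69 held (7.25%, against 2.53% of genes on the array). The kB motif stood in 8 of the 69 (11.6%, against 5.47%), the AP-1 letters TGANTCA in 4 (5.8%, against 6.84%) and the CArG box, bound by serum response factor, in 2 (2.9%, against 1.6%). Among all listed promoters these shares were 1.55% for TGACGTCA, 3.9% for the kB motif, 6.75% for TGANTCA and 1.47% for the CArG box. Of the 22 genes that were lower, 20 had a promoter, and Jade1 alone held TNACGTCA. The promoters read for Jun, Gadd45b, Tent5c, Ccl3 and Klf4 held none of the 5 motifs in this window. These are matches of letters, without a test.

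Genes whose products damp signalling rose beside the factors. Rgs1, which speeds up the shut-off of G protein signals from chemokine receptors, had 10.96, 11.15 and 10.98 in exposed and 9.53, 9.50 and 9.38 in untreated cells. It rose 2.95-fold (1.56 ± 0.088, adjusted p = 9.06e-09). The MAP kinase phosphatase gene Dusp1 had 8.06, 7.96 and 7.95 in exposed and 6.84, 6.74 and 6.86 in untreated cells and rose 2.26-fold (1.18 ± 0.094, adjusted p = 7.01e-07). In both genes the arrays of each group lay close together.

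Of the 26 measured genes for RNA decay, MAP kinase and G protein feedback, 6 rose and 0 fell (0.573% and 0.113% of all genes did), with a median of 0.30. The others were Dusp16, a phosphatase for JNK and p38 (0.74, adjusted p = 0.000851), Rgs2 (0.61, adjusted p = 0.00475), the MAP kinase phosphatase Dusp2 (0.77, adjusted p = 0.0461) and the kinase Pim3 (0.58, adjusted p = 0.0245). Dusp2 lost its call without any 1 of 5 arrays, all but untreated replicate 3 (adjusted p = 0.0643 to 0.266), and Pim3 without 10 nm replicate 1 or 3 or untreated replicate 2 or 3 (0.072 to 0.189). Dusp2 was also not called after quantile normalization, centring or rescaling of the arrays. The RNA-decay gene Btg2 spread widely, with 8.52, 7.90 and 7.74 in exposed and 8.23, 8.49 and 7.23 in untreated cells (0.071 ± 0.41, adjusted p = 0.995). Zfp36, whose protein destabilises cytokine mRNAs, stood at 0.65 (adjusted p = 0.404).

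Among growth factors, urokinase and adhesion genes, 3 of 18 rose and 0 fell, against 0.573% and 0.113% of all genes, with a median of 0.19. Hbegf, a membrane-bound ligand of the EGF receptor family, had 7.11, 6.76 and 7.12 in exposed and 5.13, 5.30 and 5.37 in untreated cells. It rose 3.31-fold (1.73 ± 0.19, adjusted p = 3.95e-05), and its second probe set rose by 1.16. Plau, which codes for the protease urokinase, had 9.29, 9.42 and 9.30 in exposed and 7.61, 8.05 and 7.61 in untreated cells and rose 2.99-fold (1.58 ± 0.12, adjusted p = 3.66e-07). Pdgfb, a growth factor for mesenchymal cells, had 8.69, 9.10 and 8.60 in exposed and 7.89, 7.79 and 6.70 in untreated cells (1.34 ± 0.29, adjusted p = 0.0428). Its untreated replicate 3 lay far below the other arrays, and the call ended without that array or any 1 exposed array (adjusted p = 0.0835 to 0.199). The urokinase receptor gene Plaur stood at 0.68 and was not called (adjusted p = 0.73).

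Genes linked to p53 and to stress of the endoplasmic reticulum rose in part. Plk2, a polo-like kinase, had 8.72, 8.69 and 8.55 in exposed and 7.04, 6.61 and 6.72 in untreated cells and rose 3.64-fold (1.86 ± 0.26, adjusted p = 0.000746). Gadd45b, which activates stress kinases, had 8.21, 8.24 and 8.50 in exposed and 6.49, 6.93 and 6.77 in untreated cells and rose 3.01-fold (1.59 ± 0.12, adjusted p = 3.66e-07). In neither gene did the groups overlap. Of the 22 measured p53 and DNA damage genes, 4 rose and 1 fell, against 0.573% and 0.113% of all genes, with a median of 0.062. Mdm2, the ubiquitin ligase that targets p53 (0.68, adjusted p = 0.000602), and the cyclin-dependent kinase inhibitor Cdkn1a (0.62, adjusted p = 0.00132) were the other rises, and Sesn1 fell. For Mdm2 and for Cdkn1a, 1 of 2 probe sets was called. Bbc3, Fas and Zmat3, targets of p53 as well, had log2 changes of 0.18, 0.071 and 0.037 and were not called (adjusted p = 0.904, 0.975 and 0.992).

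In the list for protein folding stress and the ATF4 pathway, 3 of 31 genes rose and 0 fell by their brightest probe set, with a median of 0.12. Of all genes 0.573% rose and 0.113% fell. Ddit3, the factor also called CHOP, had 8.68, 8.60 and 8.38 in exposed and 7.68, 7.76 and 7.58 in untreated cells (0.88 ± 0.12, adjusted p = 0.00045). The pseudokinase gene Trib3 (0.63, adjusted p = 0.0367) and Chac1, which breaks down glutathione (0.58, adjusted p = 0.00979), also lie downstream of ATF4. Trib3 lost its call without any 1 of 5 arrays, all but untreated replicate 1 (adjusted p = 0.0864 to 0.181), and Chac1 without 10 nm replicate 3 or untreated replicate 1 (0.064 to 0.0709), so without 10 nm replicate 3 the list held 1 call. The chaperone gene Hspa5, a marker of protein misfolding, stood at 0.0051 (adjusted p = 0.998). Of the 4 probe sets of Xbp1, a factor of the same response, 1 that is not its brightest was lower (-0.56, adjusted p = 0.0292). Its call was lost without any 1 of 5 arrays, all but untreated replicate 1 (0.0512 to 0.175).

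**Figure D3:**
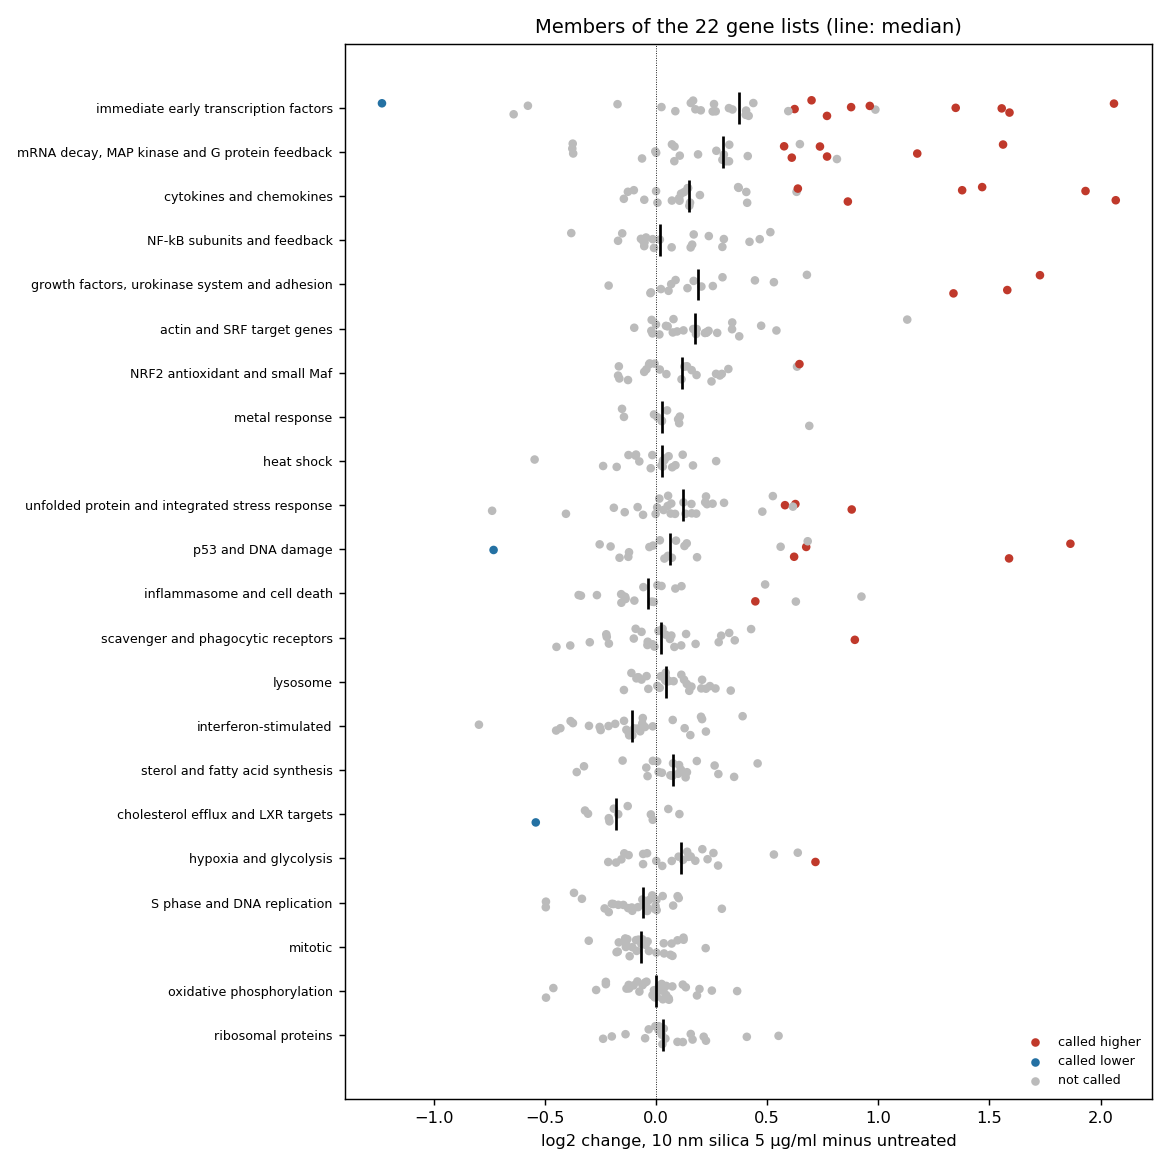
Log2 change (x axis, 10 nm silica at 5 µg/ml minus untreated) of each measured member of the 22 gene lists, 1 point per gene, red where called higher, blue where called lower and grey where not called, with a line at each list's median. Red points gather at the top, where the immediate early factors have a median of 0.37 and the cytokines and chemokines reach 2.07, while the lower lists hold few or none.

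In all, 35 distinct list genes rose and 3 fell of the 531 measured, against 0.573% and 0.113% of all 12393 genes. A called gene was held by 11 of the 22 lists, which were chosen with earlier results of these data known. Lists of antioxidant, receptor, hypoxia and cell death genes held 1 rise each. These were Mafk, a small Maf partner of NRF2 (1 of 23, 0.65, adjusted p = 0.00803), the complement receptor gene C3ar1 (1 of 28, 0.89, adjusted p = 6.03e-05), Ndrg1, which hypoxia and stress induce (1 of 24, 0.72, adjusted p = 0.00221), and Bcl2l1, whose protein Bcl-xL blocks apoptosis (1 of 20, 0.45, adjusted p = 0.0384). Mafk lost its call without 10 nm replicate 3 or untreated replicate 1 (adjusted p = 0.0534 to 0.0634). Bcl2l1 lost it without any 1 of 5 arrays, all but untreated replicate 2 (0.0534 to 0.189), and its other 3 probe sets, none called, ran from -0.46 to 0.065. Without untreated replicate 3 the receptor list held 2 calls, and without 10 nm replicate 3 the hypoxia list held 2. Hmox1, the haem oxygenase gene that NRF2 and oxidants induce, had 9.65, 10.04 and 9.32 in exposed and 9.21, 9.29 and 8.61 in untreated cells (0.63 ± 0.31, adjusted p = 0.774). Its arrays did not overlap, but they spread too widely for a call.

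By limma, 0 genes were called in 11 lists. Members with an unadjusted p under 0.05, which 6.82% of all 12393 genes had, numbered 3 of 21 for NF-kB subunits and feedback, 6 of 26 for actin and SRF targets, 1 of 11 for metal response, 1 of 20 for heat shock, 2 of 28 for lysosome and 3 of 29 for interferon-stimulated genes. They numbered 2 of 23 for sterol and fatty acid synthesis, 5 of 30 for S phase, 0 of 29 for mitotic, 3 of 34 for oxidative phosphorylation and 0 of 20 for ribosomal protein genes. The medians of these lists lay between -0.11 for interferon-stimulated and 0.17 for actin and SRF target genes. The NF-kB inhibitor gene Nfkbia stood at -0.17 (adjusted p = 0.975) and Ptgs2, which makes prostaglandin precursors, at 0.51 (adjusted p = 0.205). Rhob, a small GTPase of the actin cytoskeleton, had 7.05, 7.09 and 6.48 in exposed and 5.86, 5.86 and 5.51 in untreated cells, with no overlap but without a call (1.13 ± 0.28, adjusted p = 0.0852). Leaving out 1 array gave 1 call for the NF-kB and metal lists (without untreated replicate 3), the actin list (without 10 nm replicate 3) and the S phase list (without 10 nm replicate 2). Without every replicate 3 of the series the NF-kB list held 3 calls, and with array weights the NF-kB, actin and S phase lists held 6 each, the sterol list 5, the interferon list 4, the mitotic list 2 and the metal and oxidative phosphorylation lists 1 each. Other probe sets than the brightest gave 1 rise and 1 fall in the lysosome list, the alpha-galactosidase gene Gla (0.56, adjusted p = 0.0121) and the mannosidase gene Man2b1 (-0.71, adjusted p = 0.0145). Gla lost its call without 10 nm replicate 3 or untreated replicate 1 (0.0835 to 0.0904) and Man2b1 without any 1 exposed array or untreated replicate 3 (0.0595 to 0.0853).

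Several called genes stood outside these lists and are named after their values were seen, apart from Tent5c. Tent5c, a poly(A) polymerase that extends mRNA tails, had 8.38, 8.30 and 8.53 in exposed and 6.54, 6.64 and 7.37 in untreated cells. It rose 2.93-fold (1.55 ± 0.17, adjusted p = 3.95e-05), with untreated replicate 3 above the other untreated arrays. Like Ccl3, it was not called in the fit on the 6 arrays alone, where the other 10 of the 12 largest rises were. Zfand2a, an arsenite-inducible protein of the proteasome, was called by 3 of its 4 probe sets (1.13, 1.05 and 0.99), and the dimmest was not called (0.30, adjusted p = 0.97). The brightest lost its call without 10 nm replicate 1 or 2 or untreated replicate 2 or 3 (adjusted p = 0.0585 to 0.208). Tnfrsf12a, the receptor of the cytokine TWEAK, rose 2.13-fold (1.09 ± 0.18, adjusted p = 0.00358).

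Cd83, a surface protein of maturing antigen-presenting cells, had 10.50, 10.40 and 10.37 in exposed and 9.67, 9.55 and 9.75 in untreated cells (0.76 ± 0.083, adjusted p = 4.21e-05). Rab7b, a small GTPase of late endosomes and lysosomes, had 9.95, 9.88 and 10.00 in exposed and 9.02, 9.05 and 9.17 in untreated cells (0.86 ± 0.12, adjusted p = 0.000932). In these probe sets of both genes, the gap between the groups was several times the spread within them. The other probe set of Rab7b was called too (0.86, adjusted p = 0.00509), but not without every replicate 3 of the series. It spread more, with 9.57, 9.35 and 9.58 in exposed and 8.42, 9.07 and 8.43 in untreated cells. Anpep, an aminopeptidase of the cell surface, stood at 0.87 (adjusted p = 0.0101), and its call ended without 10 nm replicate 1 or 2 or untreated replicate 1 or 2 (0.0507 to 0.0723). The phosphate transporter gene Slc20a1 rose by 0.85 (adjusted p = 0.000238), Pvr, an adhesion receptor, by 0.84 (adjusted p = 4.16e-05), and Gpr137b, a lysosomal membrane protein, by 0.95 (adjusted p = 3.95e-05). Called were 1 of 2 probe sets of Slc20a1, 2 of 6 of Pvr and 1 of 4 of Gpr137b. The lymphoid and myeloid factor Irf4 rose from a low level, with 5.89, 5.79 and 5.85 in exposed and 4.81, 4.89 and 5.19 in untreated cells (0.88 ± 0.15, adjusted p = 0.00404).

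Falls were fewer and smaller, and Klf4 was the largest among genes taken by their brightest probe set. Klf4, a Krüppel-like factor of macrophage polarisation, had 5.98, 6.54 and 6.05 in exposed and 7.10, 7.66 and 7.51 in untreated cells. It was 2.35-fold lower (-1.23 ± 0.17, adjusted p = 0.000572), without overlap, and its second probe set was lower too (-0.82), a call lost without any 1 exposed array or untreated replicate 3 (adjusted p = 0.117 to 0.184). Klf4 and Sgpp1, a phosphatase of sphingosine-1-phosphate, were the 2 of the 12 largest falls that kept the call without each array in turn. Sgpp1 had 7.05, 7.15 and 6.88 in exposed and 7.54, 7.71 and 7.85 in untreated cells (-0.68 ± 0.11, adjusted p = 0.00263). Its other 2 probe sets were not called (-0.60 and -0.37), and its call was lost without every replicate 3 of the series. With the 6 arrays alone, 0 of the 12 were called.

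Each of the following falls lost its call when at least 1 of the 6 arrays was left out. Ptpro, a receptor-type tyrosine phosphatase, had 7.69, 7.68 and 7.75 in exposed and 8.31, 8.21 and 8.91 in untreated cells (-0.77 ± 0.14, adjusted p = 0.0101). Its untreated replicate 3 was the highest array, and the call ended without 10 nm replicate 1 (adjusted p = 0.0606). Gpr155 was lower as well (-0.80, adjusted p = 0.0117) and lost its call without 10 nm replicate 1 or 3 or untreated replicate 2 (0.0687 to 0.0718). Sesn1, a stress-responsive sestrin that restrains mTORC1, had 9.10, 9.53 and 9.17 in exposed and 9.99, 9.98 and 10.02 in untreated cells (-0.73 ± 0.14, adjusted p = 0.017). Its untreated arrays were nearly equal and 10 nm replicate 2 lay nearest to them. The call ended without any 1 of 5 arrays, all but that one (0.0552 to 0.139), while 2 further probe sets were lower as well (-0.96 and -0.91). The first of these lost its call without 10 nm replicate 1 or 3 or untreated replicate 3 (0.0642 to 0.104). The second lost it without any 1 of 5 arrays, all but 10 nm replicate 2 (0.115 to 0.303). Tnfaip8, an inhibitor of apoptosis, stood at -0.65 (adjusted p = 0.032) and lost its call without any 1 of 5 arrays, all but 10 nm replicate 2 (0.0508 to 0.207). Gpr65, a proton-sensing receptor, stood at -0.53 (adjusted p = 0.0431) and lost it without any 1 of 5 arrays, all but untreated replicate 2 (0.079 to 0.194). The progestin receptor gene Paqr7 stood at -0.60 (adjusted p = 0.0194) and lost it without 10 nm replicate 2 or 3 or untreated replicate 1 or 3 (0.0668 to 0.105). Zbtb45, a zinc finger gene, stood at -0.51 (adjusted p = 0.012) and lost it without 10 nm replicate 1 or untreated replicate 3 (0.0643 to 0.0755).

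Hpgd, which inactivates prostaglandins, had 8.67, 8.85 and 8.79 in exposed and 9.27, 9.31 and 9.61 in untreated cells (-0.63 ± 0.13, adjusted p = 0.0245). Mylip, a ligase that degrades the LDL receptor, was the 1 of 12 measured LXR targets and cholesterol efflux genes that fell (-0.54, adjusted p = 0.03). Of all genes 0.113% fell, and the list's median was -0.18. Angptl4, which inhibits lipoprotein lipase, stood at -0.59 (adjusted p = 0.03), while its second probe set stood at 0.063 and was not called. Hpgd lost its call without any 1 exposed array or untreated replicate 3 (adjusted p = 0.0507 to 0.157), Mylip without 10 nm replicate 1 or 2 or untreated replicate 1 or 3 (0.101 to 0.165) and Angptl4 without any 1 of the 6 arrays (0.0505 to 0.145). Angptl4, Mylip and Gpr65 were also not called after quantile normalization, centring or rescaling. Jade1, a partner of histone acetyltransferases, showed the lowest change of all called probe sets by 1 that is not its brightest, with 6.06, 5.94 and 6.18 in exposed and 7.19, 6.66 and 8.24 in untreated cells (-1.31 ± 0.25, adjusted p = 0.0132). Untreated replicate 3 was its highest array, and the call ended without 10 nm replicate 1 or 2 (0.0672 to 0.0723). With 1 array left out in turn, its log2 change ran from -1.66 to -0.87.

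The larger doses show how far the response at 5 µg/ml lay below that of the same particle. Against untreated cells 0.619% of probe sets were called at 5 µg/ml, 9.23% at 20 µg/ml and 17.6% at 50 µg/ml. These 3 comparisons share the untreated arrays, and those at 20 and 50 µg/ml were not refitted without untreated replicate 3. In the direct comparisons, which share the 5 µg/ml arrays, 302 probe sets were higher (1.33%) and 586 lower (2.59%) at 20 than at 5 µg/ml, and 640 were higher (2.83%) and 1637 lower (7.24%) at 50 than at 5 µg/ml. Without 10 nm 5 µg/ml replicate 2 the called probe sets numbered 506 and 1248 in these comparisons, and without 20 µg/ml replicate 1 the first numbered 476. On 50 µg/ml replicate 3 the Gapdh index was 0.86, against 0.14 and 0.10 on replicates 1 and 2 of that dose. Without that array the second comparison held 1643 calls, and the part of this index was not tested.

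Cxcl2 and Atf3 were higher again at both larger doses. The log2 changes of Cxcl2 against untreated cells were 2.07, 4.98 and 5.11 at 5, 20 and 50 µg/ml, and its difference from 5 µg/ml was 2.92 at 20 and 3.05 at 50 µg/ml (adjusted p = 4.6e-11 and 2.16e-11). Those of Atf3 were 2.06, 3.62 and 3.54, with differences from 5 µg/ml of 1.56 and 1.48 (adjusted p = 4.08e-08 and 6.67e-08). Some genes that were not called at 5 µg/ml were among the largest rises beyond it. Rhob rose by 4.11 and 4.01 above its level at 5 µg/ml (adjusted p = 2.25e-08 and 2.52e-08), Nr4a1 by 3.21 and 3.34, Egr2 by 3.09 and 3.51, and Fos by 2.82 and 3.56. For Ccl2 the differences were 3.03 and 3.20, and for Klf2, which was called at 5 µg/ml, 3.60 and 3.46. Among genes taken by their brightest probe set, the repressor gene Gfi1 had the lowest difference at 20 µg/ml (-1.71) and the zinc finger gene Zfp958 at 50 µg/ml (-1.78).

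**Figure D4:**
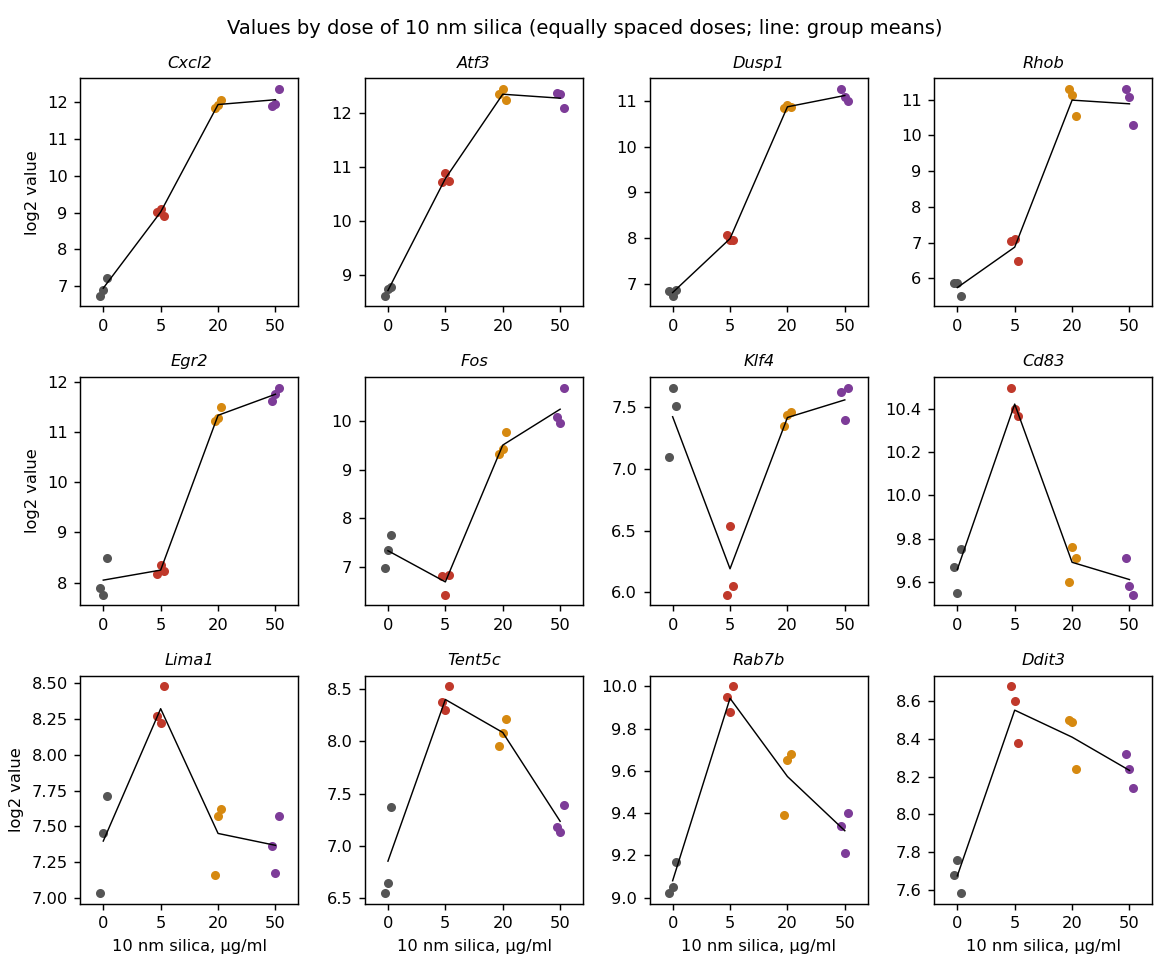
Log2 value (y axis) on each array for 12 genes at 0, 5, 20 and 50 µg/ml of 10 nm silica (x axis, doses equally spaced), with a line through the group means (n = 3 arrays each). Cxcl2, Atf3, Dusp1 and Rhob go up to 20 µg/ml, Egr2 and Fos are up at 20 µg/ml but not at 5, and Klf4, Cd83 and Lima1 leave the untreated level at 5 µg/ml alone of the 3 doses. Of the 3 probe sets of Lima1, only the 1 shown was called at 5 µg/ml.

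A few genes were changed at 5 µg/ml and lay at the untreated level at larger doses. Klf4 had 7.35, 7.44 and 7.46 at 20 µg/ml and 7.62, 7.40 and 7.66 at 50 µg/ml, so its log2 changes against untreated cells were -1.23, -0.0028 and 0.14 at 5, 20 and 50 µg/ml. It was higher at 20 and at 50 than at 5 µg/ml by 1.23 and 1.38 (adjusted p = 0.00018 and 3.32e-05). The changes of Cd83 were 0.76, 0.032 and -0.050, and it was lower than at 5 µg/ml by log2 values of -0.73 and -0.81 (adjusted p = 2.23e-05 and 4.25e-06). Lima1, an actin-binding protein, had changes of 0.93, 0.054 and -0.028 and was lower than at 5 µg/ml by -0.87 and -0.95 (adjusted p = 0.00437 and 0.00115). The rise of Lima1 at 5 µg/ml was called by 1 of its 3 probe sets. It was itself not called without 10 nm replicate 3 or untreated replicate 1 (adjusted p = 0.0657 to 0.0668). Tent5c declined more slowly, with changes of 1.55, 1.24 and 0.38, and was lower at 50 than at 5 µg/ml (-1.17, adjusted p = 0.000163) but not called at 20 µg/ml (-0.31, adjusted p = 0.435). The probe sets of Rab7b disagreed: the brighter had 0.86, 0.49 and 0.24 and was lower at 50 than at 5 µg/ml (-0.63, adjusted p = 0.00283), while the other had 0.86, 1.14 and 0.98, with neither difference from 5 µg/ml called (adjusted p = 0.408 and 0.647). Ddit3 stood at 0.88, 0.73 and 0.56, and neither difference from 5 µg/ml was called (adjusted p = 0.687 and 0.0991). Cd83, Lima1, Rab7b and Ddit3 were picked after their values were seen.

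The 500 nm silica at 250 µg/ml has the same nominal surface, dose divided by diameter, as 10 nm silica at 5 µg/ml, though its mass dose is far larger. Between the sizes, 11 probe sets were higher (0.0486%) and 0 lower with 10 nm silica by limma, and the called ones belonged to 10 genes. An unadjusted p under 0.05 was found for 832 probe sets (3.68%), fewer than the 5% that uniform p-values would give. Without 500 nm replicate 3 the calls numbered 0, without 500 nm replicate 2 they numbered 4 and without 10 nm replicate 2 they numbered 5, so single arrays decide much of this comparison.

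Hbegf had 7.11, 6.76 and 7.12 with 10 nm silica, against 5.91, 5.21 and 5.52 with 500 nm silica (difference 1.45 ± 0.19, adjusted p = 0.00372), but its second probe set was not called (0.78, adjusted p = 0.099). Ccl4 had 10.98, 11.07 and 10.75 with 10 nm, against 10.17, 10.01 and 9.90 with 500 nm silica (0.91 ± 0.12, adjusted p = 0.00372), and the 500 nm arrays lay above the untreated ones. Gadd45b was higher with 10 nm silica as well (0.74, adjusted p = 0.0193). Dusp16 (0.77, adjusted p = 0.00392), the transcription regulator gene Sertad1 (0.77, adjusted p = 0.00372) and the cell polarity gene Pard6b (0.79, adjusted p = 0.0272) were called against untreated cells with 10 nm silica, where their log2 changes were 0.74, 0.67 and 0.70. Against untreated cells their values with 500 nm silica were -0.029, -0.11 and -0.089. The rise of Pard6b over untreated cells was not called without 10 nm replicate 2 or untreated replicate 1 or 3 (0.0549 to 0.0814). Leaving out 500 nm replicate 3 gave adjusted p = 0.0563 for Hbegf, Ccl4, Egr2 and Sertad1, which kept the call without each other array. Gadd45b kept it without 10 nm replicate 1 alone of the 6 arrays (0.0772 to 0.169 without the others), as did Pard6b (0.0755 to 0.245), and Dusp16 lost it without 500 nm replicate 2 or 3 (0.0559 to 0.0603).

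**Figure D5:**
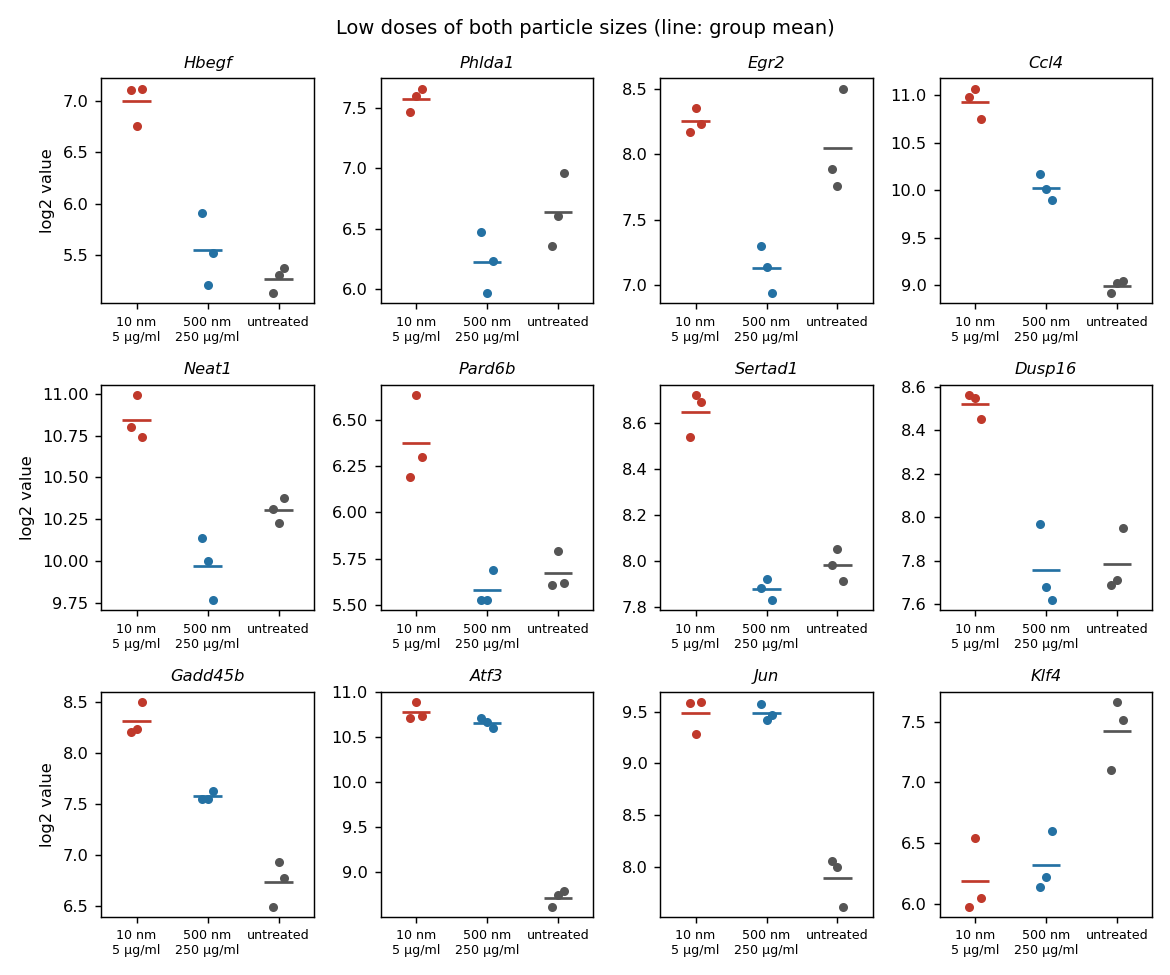
Log2 value (y axis) on each array with 10 nm silica at 5 µg/ml (red), 500 nm silica at 250 µg/ml (blue) and in untreated cells (grey) for 12 genes, with bars at the group means (n = 3 each). The first 9 genes were called between the sizes, from Hbegf (difference 1.45) to Gadd45b (0.74), while Atf3 (0.12), Jun (-0.0041) and Klf4 (-0.13) were not.

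The other genes called between the sizes were Egr2, Neat1, Phlda1 and Klf9. Egr2 had 8.17, 8.35 and 8.23 with 10 nm, against 7.30, 7.14 and 6.94 with 500 nm silica and 7.89, 7.76 and 8.50 in untreated cells. It was higher with 10 nm than with 500 nm silica (1.12 ± 0.15, adjusted p = 0.00372), and with 500 nm silica it was lower than in untreated cells (-0.92, adjusted p = 0.00515). The latter comparison was not refitted without untreated replicate 3, its highest untreated array. Neat1, a long noncoding RNA that builds paraspeckles, had 10.80, 10.99 and 10.74 with 10 nm, against 10.14, 10.00 and 9.77 with 500 nm silica (0.88 ± 0.13, adjusted p = 0.0122), and neither size was called against untreated cells (0.54 and -0.34). Phlda1, an early gene with a pleckstrin-like domain, stood at 7.47, 7.60 and 7.66 with 10 nm, against 6.47, 5.97 and 6.23 with 500 nm silica (1.35 ± 0.21, adjusted p = 0.0143), and at 0.94 and -0.42 against untreated cells. Neat1 lost its call between the sizes without 10 nm replicate 2 or 500 nm replicate 2 or 3 (adjusted p = 0.0755 to 0.119), and Phlda1 without these or 10 nm replicate 3 (0.0755 to 0.169). Of the 7 probe sets of Klf9, a Krüppel-like factor, 1 that is not its brightest differed by 1.09 (adjusted p = 0.0066). It lost its call without 10 nm replicate 2 or 500 nm replicate 2 or 3 (0.0755 to 0.0884). Against untreated cells it alone of the 7 was called, and 1 had the opposite sign.

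Of the 24 genes with the largest changes at 5 µg/ml, Hbegf, Ccl4 and Gadd45b were called higher between the sizes, against 0.0486% of all probe sets. The 24 were picked by their values on the same 10 nm arrays. The others were not called. Atf3 differed by 0.12 (95% interval -0.11 to 0.35), Jun by -0.0041 (-0.26 to 0.25) and Plk2 by 0.15 (-0.40 to 0.70). For Cxcl2 the difference was 0.34 (0.076 to 0.61) and for Klf4 -0.13 (-0.49 to 0.22). The intervals of Maff (0.18 to 0.82), Plau (0.038 to 0.54), Rgs1 (0.050 to 0.42), Sgpp1 (-0.59 to -0.14) and Mylip (-0.57 to -0.095) also lay on 1 side of 0, without a call. These intervals are not adjusted for the number of probe sets. The median full width of such an interval over all probe sets was 0.64. The iron exporter gene Slc40a1 stood at 0.69 with 10 nm and 1.42 with 500 nm silica against untreated cells (adjusted p = 0.255 and 0.00173), and the sizes differed by -0.73 without a call (adjusted p = 0.654).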

How the data were processed

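RMA made the deposited log10 values, 1 for each probe set and array; the submitters' processing notes name that tool, without version or settings. RMA usually evens out array distributions and compresses changes of dim probe sets. Per the labels, 5 µg of total RNA was copied from an oligo-dT primer into biotin-labelled RNA. The base was read from the values (0.641 to 4.34, at most 22019 units in base 10), and every fold change rests on it. Multiplication by 3.322 turned them into log2 values.

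Arrays were grouped by their titles. limma 3.58.1 in R 4.3.3 (lmFit, eBayes) was fitted to the group means of all 21 arrays with 14 residual and 4.02 prior degrees of freedom. Benjamini-Hochberg adjustment ran over 22626 probe sets. The median residual SD was 0.19. The test was checked on simulated data with noise drawn independently for each array, so the check does not cover deviations shared by replicate number.

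Gene names came from the platform annotation, which can be old: 20380 probe sets had 1 symbol (20351 matched RefSeq by gene ID), 691 several and 1555 none. Each of the 12393 genes was represented by its probe set with the highest mean. Named were the 12 largest rises and falls, the 5 largest of each direction elsewhere, and for every list the 3 largest called members or the one with the smallest p; other genes were picked after their values were seen. The members and lists were chosen with earlier results of these data known. Promoters came from RefSeq (GRCm38.p6). Alternatives were a replicate block, 3 scalings, the compared arrays alone, bright probe sets, 1 probe set per gene, array weights, another prior and leaving out arrays. Figures used matplotlib 3.10.9 in Python 3.11.15. Arrays have no depth, and their number limits the precision.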

Additional observations from a re-analysis of the deposited data

Results flagged for a closer look

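The genes named here differed between 10 nm silica at 5 µg/ml and 500 nm silica at 250 µg/ml by limma's test of the difference itself, and 0 of these calls held without 500 nm replicate 3. The log2 differences, 10 nm minus 500 nm, were 1.45 for Hbegf, 1.35 for Phlda1, 1.12 for Egr2, 0.91 for Ccl4, 0.88 for Neat1, 0.79 for Pard6b, 0.77 for Sertad1, 0.77 for Dusp16 and 0.74 for Gadd45b. No outlier test was run on groups of 3 arrays, though each array of the compared groups was left out in turn.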

How the results depend on the processing

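Of the 140 calls against untreated cells, 0 changed sign in those of the 16 alternatives that tested them. Medians over all probe sets lay near 0 and did change sign under some: with the brighter probe sets that against untreated cells was -0.020 instead of 0.015, and that at 50 against 5 µg/ml -0.12 instead of 0.011, while centring gave 0.014 instead of -0.0067 at 20 against 5 µg/ml. For 10 nm silica at 5 µg/ml against untreated cells, the main counts were 110 higher and 30 lower; the 6 arrays alone gave 15 and 0, and array weights gave 1053 and 883. Leaving out 1 array gave 75 to 103 higher and 5 to 28 lower. Between the sizes, where 11 were called, the compared arrays alone gave 4, array weights 143, no replicate 3 in any group 4, and leaving out 1 array 0 to 11. For 20 against 5 µg/ml, where 888 were called, the compared arrays alone gave 535, 1 probe set per gene 582, array weights 4023, and leaving out 1 array 476 to 674. For 50 against 5 µg/ml, where 2277 were called, these gave 559, 1452, 8067 and 1248 to 2442. The cause of these shifts was not tested, apart from the fewer features or arrays that some settings use.

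The numbers were taken to pair arrays only if all 3 pairs of a comparison had deviations correlated above 0.1, and replicate 1 missed that in each of the 4 comparisons (-0.02 to 0.09). Replicates 2 (0.20 to 0.42) and 3 (0.42 to 0.53) passed it in each, and the comparisons share arrays. Between exposed and untreated cells the correlations were 0.02, 0.28 and 0.44, and replicate 2 correlated more with another number (0.32) than with its own. With the replicate block, calls numbered 215 higher and 105 lower against untreated cells, 40 between the sizes, 1765 for 20 and 4513 for 50 against 5 µg/ml.

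Rescaling moved the split of the dose comparisons. At 50 against 5 µg/ml, 28.1% of calls were higher, against 38.7% after quantile normalization (767 higher, 1217 lower) and 40.9% with arrays set to the same median and SD (788 and 1137). At 20 against 5 µg/ml the share was 34% and 44.1% with equal median and SD (349 and 442).

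Calls in the gene lists moved as well. The 6 arrays alone gave 3 for the cytokine list (6 in the report), 2 for feedback (6), 2 for p53 (5) and 0 for the stress response (3), NRF2, cell death, receptor, LXR and hypoxia lists (1 each). Array weights gave 14 for feedback, 7 for growth factors (3), 8 for the stress response, 3 for NRF2, 5 for cell death, 7 for receptors and 5 for hypoxia. The replicate block gave 5 for growth factors, 6 for the stress response, 3 each for actin, cell death and hypoxia, 2 for NRF2 and 1 each for NF-kB, metal and S phase. Without every replicate 3 there were 3 for p53, 3 for receptors, 2 for hypoxia and 1 each for actin and metal.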
